A study of Mus musculus with 18 samples.

Results

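The genes described here are 10 mouse genes of glucose uptake and glycolysis: the glucose transporters Slc2a1 and Slc2a3, the hexokinases Hk1 and Hk2, the phosphofructokinase subunits Pfkl and Pfkp, the aldolase Aldoc, the phosphoglycerate kinase Pgk1, the lactate dehydrogenase subunit Ldha and the pyruvate dehydrogenase kinase Pdk1. They were taken by name from the 19938 genes that had a probe set with a single gene symbol, and all 10 were found. The choice was made with earlier results of these data known. Their expression was followed over 18 arrays of the Affymetrix Mouse Gene 1.0 ST type, 1 array per cell sample. A level below is the log2 intensity after quantile normalization of all 18 arrays together, which gave every array a median of 7.93. A difference of 1 on this scale is a 2-fold difference.

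The study asked how Apc mutation and mutant beta-catenin act in different kinds of cell. Apc is part of the complex that marks beta-catenin for destruction, and Min is a truncating Apc mutation. Reprogrammed colon tumour cells (RTCs, lines 1 to 3) are colon tumour cells brought to a pluripotent state. The derivatives #45, from RTC line 1, and #9, from RTC line 3, are taken, as background that the labels do not give, to have regained Apc function. Embryonic stem cells (ESCs) were Apc +/+, Apc Min/+ or Apc Min/Min, 1 array each. Small intestinal organoids and embryonic fibroblasts (MEFs) came from #45, a single clone, with or without 4-hydroxytamoxifen (4-OHT) for 2 days, at 1 uM in organoids (1 array per arm) and 2 ug/ml in MEFs (2 arrays per arm). What 4-OHT switches is not stated. S33 ESCs and S33 MEFs were measured with and without doxycycline (dox), 1 array each, and the name S33 is not explained. The growth protocol names serum with LIF for RTCs and ESCs, serum for MEFs, and serum-free medium in Matrigel with EGF, Noggin and R-spondin for organoids. It also lists Min/Min ESCs in a TS medium with FGF4, without saying whether the Min/Min array came from such cells. Culture medium and cell type can therefore not be told apart.

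Glucose enters cells through facilitative transporters of the Slc2a family, is trapped as glucose-6-phosphate by a hexokinase and is split after phosphofructokinase has committed it to glycolysis. Several steps are served by paralogues with different kinetics and tissue use: Slc2a1 is widespread and Slc2a3 has a high affinity for glucose, while Hk1 is a housekeeping hexokinase and Hk2 an inducible one. Ldha favours the conversion of pyruvate to lactate, and Pdk1 inhibits pyruvate dehydrogenase and so holds pyruvate back from the mitochondria. Many of these genes are known targets of the hypoxia factor Hif1 and of Myc, and Wnt signalling has been linked to Pdk1 in colon cancer cells.

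The cell type markers and the Wnt target Axin2 were read first. All 8 pluripotent markers lay above the array median on the 10 ESC, RTC and derivative arrays, and at most 1 did on an organoid or MEF array. All 12 intestinal epithelium markers did so on both organoid arrays, and at most 3 on any other array. All 12 fibroblast markers did so on the 6 MEF arrays, but 10 to 12 of them also did on the pluripotent arrays, where their mean level ranged from 8.40 to 11.01, against 12.05 to 12.69 in MEFs and 7.22 to 7.47 in organoids. Apc, whose Min allele changes the protein and is not read by these probes as such, was between 9.86 and 10.97 on all arrays. Axin2 was at 10.57, 10.44 and 10.41 in RTC lines 1, 2 and 3 and at 10.90 in Min/Min ESCs, against 8.26 and 8.72 in #45 and #9, 8.41 in Apc +/+, 8.61 in Min/+ and 9.14 in untreated S33 ESCs. Dox went with a change in Axin2 from 8.60 to 11.27 in S33 MEFs and from 9.14 to 9.35 in S33 ESCs. 4-OHT went with 11.30 to 11.81 in organoids, and with 8.55 to 8.53 and 8.63 to 8.81 in the MEFs numbered 1 and 2.

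The first question was which of the 10 genes each cell type used. Differences between cell types were estimated with limma in a fit of all 18 arrays (10 pluripotent, 2 organoid, 6 MEF), so Apc state and treatment add to the spread within a cell type. Arrays of the same or related lines counted as separate units, so p-values between cell types do not measure spread between independent lines. Adjusted p-values are Benjamini-Hochberg values over all genes tested, and an error after ± is a standard error unless marked SD. In MEFs, all 10 genes differed from pluripotent cells: 9 were lower and Hk1 was higher. So many genes separate these cell types that 69.9% of the 13937 genes tested were called (37.3% higher, 32.6% lower), so a call alone says little about these 10, and the sizes carry the description. The median difference of the 10 was -1.36, against 0.06 for all genes tested. The 10 were chosen with earlier results of these data known, so this describes them and tests nothing. Medians of the further pathway lists read below ran from -1.50 (lactate and pyruvate genes) to 0.42 (phosphofructokinase regulators), with -0.24 for other glycolytic enzymes. In organoids 3 of the 10 were lower than in pluripotent cells, with 52.2% of genes called (27.2% lower). Against MEFs, 7 were higher and 2 lower in organoids, with 51.6% called (25.4% higher, 26.2% lower). Fewer cells of a type and less RNA per cell cannot be told apart in such bulk samples.

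**Figure D1:**
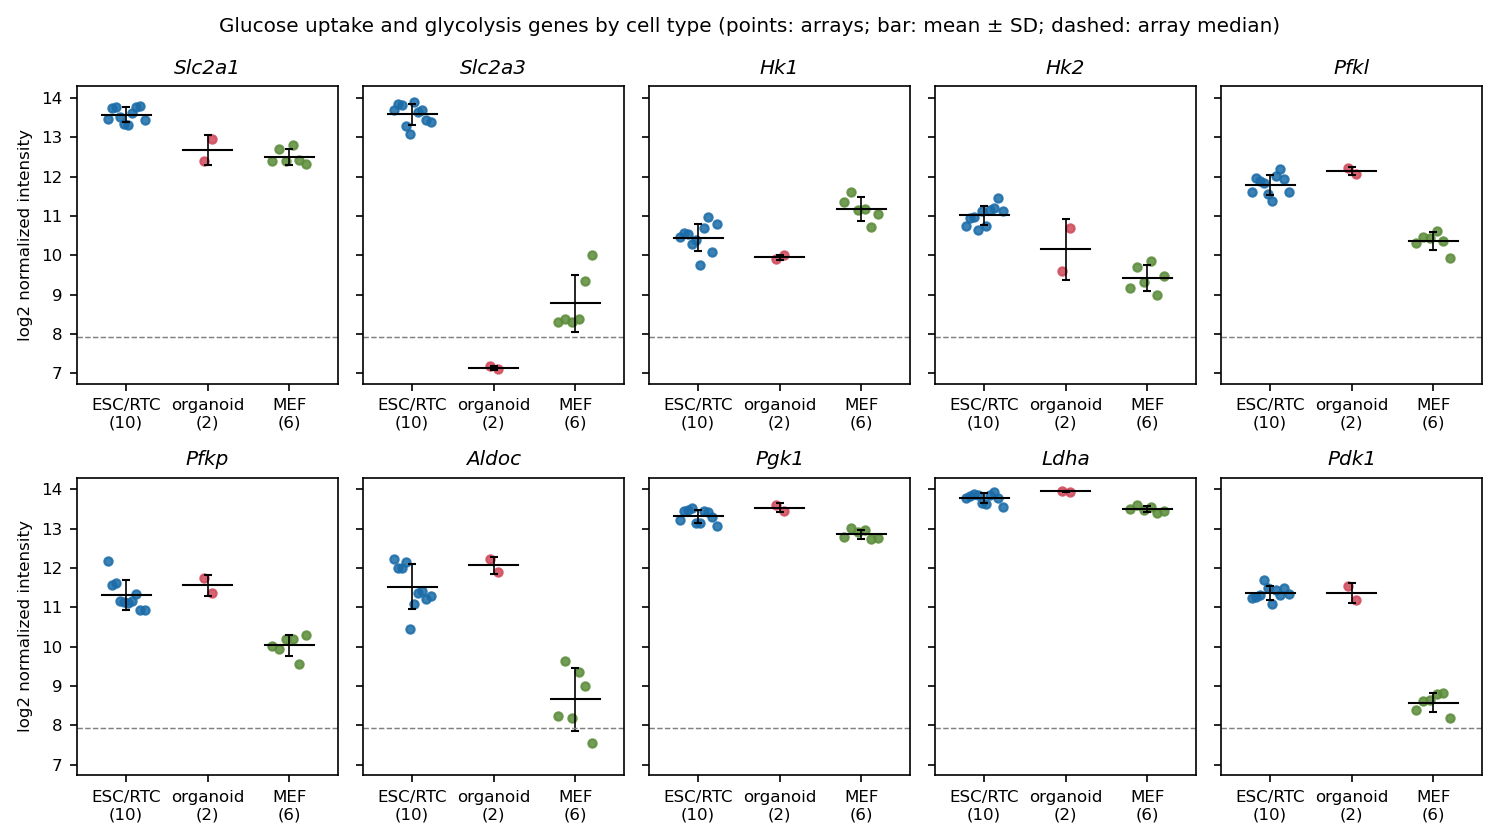
Log2 normalized intensity (y axis) of the 10 genes in 10 ESC, RTC and derivative arrays, 2 organoid arrays and 6 MEF arrays; points are arrays, bars the mean ± SD, and the dashed line the array median of 7.93. Slc2a3 spans 6.79 log2 units over the 18 arrays and Ldha 0.56.

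Slc2a3 varied most between the cell types. Its level in the 10 pluripotent arrays had a lowest value of 13.09, a median of 13.66 and a highest value of 13.89. In the MEF arrays it was 8.30 and 8.29 without 4-OHT, 8.37 and 8.39 with it, and 9.34 and 10.01 in S33 MEFs without and with dox. In the organoids it was 7.17 without and 7.10 with 4-OHT, both under the array median. The cell types did not overlap, and the S33 MEFs stood above the #45-derived MEFs. Slc2a3 was lower in MEFs than in pluripotent cells by 4.80 ± 0.22 (27.8-fold, adjusted p = 3.17e-12) and lower in organoids by 6.45 ± 0.34 (87.2-fold, adjusted p = 7.67e-12). Organoids lay below MEFs by a further 1.65 ± 0.36 (adjusted p = 0.000702). At levels near or under the array median background signal makes a fold change too small. Its range over the 18 arrays was larger than that of 99.51% of the 13946 genes above the median on at least 1 array.

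Slc2a1 changed less. It ranged from 13.32 to 13.80 in pluripotent cells, with a median of 13.56, and from 12.31 to 12.81 in MEFs, with a median of 12.41. In organoids it was 12.41 without and 12.95 with 4-OHT. Both differentiated cell types lay below every pluripotent array: MEFs by 1.07 ± 0.11 (adjusted p = 9.05e-08) and organoids by 0.90 ± 0.17 (adjusted p = 0.000185). MEFs and organoids overlapped, with a difference of 0.17 (95% interval -0.19 to 0.54). The organoid call was lost with arrays centred on their medians instead (-0.52, adjusted p = 0.0613).

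The hexokinases moved in opposite directions in MEFs with the Hk1 probe set used here. Hk2 ranged from 10.65 to 11.45 in pluripotent cells (median 11.05) and from 8.99 to 9.85 in MEFs (median 9.41), with no overlap. It was lower in MEFs by 1.59 ± 0.17 (adjusted p = 9.47e-08). Organoids held 9.61 without and 10.70 with 4-OHT, so the untreated organoid lay within the range of MEFs and the treated one within that of pluripotent cells. Over both arrays organoids were lower than pluripotent cells by 0.86 ± 0.25 (adjusted p = 0.00731) and higher than MEFs by 0.74 ± 0.26 (adjusted p = 0.0249). Both calls rested on 1 array: without the untreated organoid the first was -0.31 (adjusted p = 0.429), and without the treated one the second was 0.19 (adjusted p = 0.643). Among arrays of #45 origin alone the MEF difference was -1.14 (adjusted p = 0.0542).

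Hk1 ranged from 9.76 in Min/Min ESCs to 10.97 in Min/+ ESCs, with a median of 10.49 over the pluripotent arrays, and from 10.72 to 11.61 in MEFs, with a median of 11.16. The ranges overlapped. Hk1 was higher in MEFs by 0.73 ± 0.16 (adjusted p = 0.000517). In organoids it was 9.91 and 10.00, lower than in MEFs by 1.22 ± 0.25 (adjusted p = 0.000463) and 0.50 below pluripotent cells (adjusted p = 0.0881, upper 95% bound 0.003). That last difference passed on the values as deposited (-0.86, adjusted p = 0.0333) and without the Min/Min array (-0.58, adjusted p = 0.0243), and was -0.046 with a brighter Hk1 probe set. These values come from the Hk1 probe set annotated to RefSeq mRNAs. The brighter probe set, whose only accession is also given to 16 probe sets that list Hk1 with other symbols, stayed between 13.34 and 13.70 on all arrays. With it, the MEF difference was -0.11 (adjusted p = 0.144) and the organoid against MEF difference 0.06 (adjusted p = 0.637).

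Aldoc, an aldolase best known from brain, also separated MEFs from the rest. In pluripotent cells its lowest, median and highest values were 10.46, 11.40 and 12.24, and in organoids it was 12.23 without and 11.91 with 4-OHT. In MEFs it ran from 7.54 to 9.64 with a median of 8.63. No MEF array reached the lowest pluripotent one. Aldoc was lower in MEFs than in pluripotent cells by 2.86 ± 0.30 (7.27-fold, adjusted p = 1.28e-07) and than in organoids by 3.41 ± 0.48 (10.6-fold, adjusted p = 7.99e-06). Organoids and pluripotent cells overlapped, with a difference of 0.54 (95% interval -0.42 to 1.50). Aldoa, the widespread aldolase, lay between 13.46 and 13.87 on the 18 arrays and was lower in MEFs than in pluripotent cells by 0.18 (adjusted p = 0.0373).

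Pdk1 also set MEFs apart. It lay between 11.09 and 11.71 in pluripotent cells (median 11.33), at 11.55 and 11.18 in organoids without and with 4-OHT, and between 8.19 and 8.82 in MEFs (median 8.63). MEFs were lower than pluripotent cells by 2.80 ± 0.11 (6.94-fold, adjusted p = 2.57e-13) and lower than organoids by 2.79 ± 0.17 (adjusted p = 1.16e-10). Organoids and pluripotent cells differed by -0.01, with a 95% interval of -0.35 to 0.34.

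The phosphofructokinase subunits followed the same outline with smaller sizes. Pfkl, the liver-type subunit, had medians of 11.86 in pluripotent cells and 10.40 in MEFs, and values of 12.22 and 12.07 in organoids without and with 4-OHT. Pfkp, the platelet-type subunit, had medians of 11.16 and 10.11, and organoid values of 11.75 and 11.37. Neither gene's MEF range reached its pluripotent range. MEFs were lower than pluripotent cells by 1.44 ± 0.12 for Pfkl and 1.28 ± 0.17 for Pfkp. Organoids exceeded MEFs by 1.79 ± 0.19 and 1.53 ± 0.27.

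The enzymes of the lower pathway changed least. Pgk1, which makes ATP in glycolysis, ran from 13.07 to 13.53 in pluripotent cells, 12.75 to 13.01 in MEFs and 13.46 to 13.61 in organoids. Ldha ran from 13.55 to 13.95, 13.40 to 13.60 and 13.94 to 13.96. MEFs were lower than pluripotent cells by 0.46 ± 0.09 for Pgk1 and 0.29 ± 0.07 for Ldha, the latter with overlapping ranges. Organoids lay above pluripotent cells by 0.22 for Pgk1 and 0.17 for Ldha, neither of which passed, but on median-centred values both did (0.71 and 0.78), as did Pfkl (0.63). There the median of all genes itself shifted by 0.24. The Ldha call in MEFs was lost on the values as deposited (-0.25, adjusted p = 0.0828). By mean level, only 0.0953% of genes stood above Ldha, 0.431% above Pgk1 and 0.502% above Slc2a1. So near to the brightest value on any array, 14.3, differences can be compressed, and this was not tested. Pgk1 was read by 3 probe sets of like accessions that differed by at most 0.10 on an array, and reads of a processed copy cannot be told apart.

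The choice within a paralogue pair was compared through the difference of both log2 levels on the same array. The size of that difference has no meaning across probe sets, but its shift between cell types does. 4 pairs in 3 comparisons gave 12 exact two-sided permutation tests over arrays, adjusted together. From pluripotent cells to MEFs, the balance shifted from Slc2a3 towards Slc2a1 by 3.72, from Aldoc towards Aldoa by 2.68 and from Hk2 towards Hk1 by 2.32. Each of these 3 shifts had no overlap between 6 and 10 arrays (exact permutation p = 0.00025, the smallest possible; adjusted p = 0.000999). Arrays of the same line, treated and untreated, and RTC lines and their derivatives were permuted as separate units. The p-values thus measure spread between arrays and not between independent lines, and can be too small. With the brighter Hk1 probe set the hexokinase balance differed by -1.49 (Hk2 over Hk1), with the same adjusted p by the exact permutation test. The balance of Pfkp and Pfkl differed by 0.16 (exact permutation p = 0.479).

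With 2 organoid arrays the smallest possible exact permutation p is 0.0303 against pluripotent cells and 0.0714 against MEFs. The shift from Slc2a3 to Slc2a1 in organoids was 5.55 against pluripotent cells (adjusted p = 0.0909 by the exact permutation test), again without overlap. Against MEFs, organoids had a balance shifted towards Aldoc by 3.26 and towards Hk2 by 1.96, and away from Slc2a3 by 1.82, each without overlap (exact permutation p = 0.0714, adjusted p = 0.122).

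**Figure D2:**
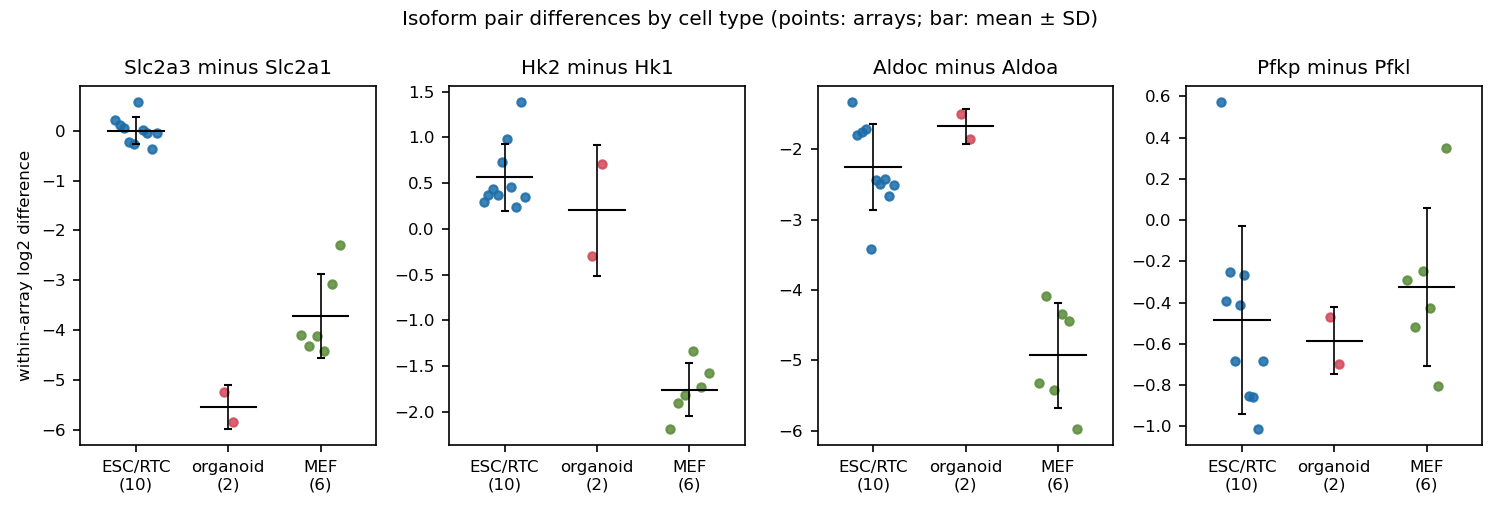
Within-array log2 difference (y axis, own scale in each panel) between paralogues in 10 ESC, RTC and derivative arrays, 2 organoid arrays and 6 MEF arrays; points are arrays and bars the mean ± SD. Slc2a3, Hk2 and Aldoc lose ground to their partners in MEFs by 3.72, 2.32 and 2.68, while the Pfkp and Pfkl pair overlaps.

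The rest of the pathway showed which relatives stood beside these genes. Counts of calls against pluripotent cells have to be read beside the share of all genes called, 52.2% in organoids and 69.9% in MEFs. Of 9 further glucose and hexose transporters, 4 were higher and 1 lower in organoids than in pluripotent cells. The largest were the sodium-coupled glucose transporter Slc5a1 (5.01 ± 0.30, adjusted p = 6.35e-11), the low-affinity transporter Slc2a2 (3.69 ± 0.15, adjusted p = 1.01e-13) and the fructose transporter Slc2a5 (3.42 ± 0.19, adjusted p = 2.65e-11), while Slc2a8 was lower by 0.59. Slc5a1 was at 12.62 and 12.35 in organoids and at most at 8.34 elsewhere, and Slc2a2 at 10.61 and 10.16 against at most 6.90. In MEFs 4 of the 9 were higher and 2 lower, led by Slc2a10 (2.44 ± 0.18), Slc2a6 (1.99 ± 0.24) and Slc2a9 (1.02 ± 0.10), against Slc2a5 (-0.97) and Slc5a1 (-0.90). Slc2a5 and Slc5a1 lay under the array median on all 6 MEF arrays and on 7 and 9 of the 10 pluripotent ones. These 2 differences are thus mostly between signals near background. The insulin-responsive Slc2a4 stayed between 7.49 and 8.39 on all arrays.

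Among the other hexokinases, Hkdc1 was higher in organoids by 2.74 ± 0.40 (adjusted p = 1.45e-05). It was at 10.65 and 9.80 there, at 9.17 in Min/Min ESCs and at most at 8.16 elsewhere. Hk3, a hexokinase of myeloid cells, was higher in MEFs by 0.66 ± 0.20 (adjusted p = 0.00764), at 8.19 and 8.60 in the MEFs numbered 1 and at most at 7.28 on the other MEF arrays. The 8 immune markers had mean levels of 10.87 and 10.60 in the MEFs numbered 1, against 7.19 to 8.64 in the other 4 MEF arrays, and their part in the Hk3 value was not tested.

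Of the other glycolytic enzymes 9 were tested, and 2 were higher and 4 lower in organoids. The liver-type pyruvate kinase Pklr was higher by 4.93 ± 0.17 (adjusted p = 1.11e-14), at 13.13 and 12.84 against at most 8.43 elsewhere. Tpi1 followed at 0.46, and Eno2, Eno3 and Pgam2 were lower by 1.50, 1.30 and 1.25. In MEFs 1 was higher (the neuronal enolase Eno2, 0.70) and 5 lower, led by the muscle phosphofructokinase Pfkm (-0.70). Pkm, another pyruvate kinase gene, was among them with -0.34.

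At the pyruvate end, the heart-type subunit Ldhb was lower in organoids by 4.20 ± 0.35 (adjusted p = 1.05e-08) and in MEFs by 1.71 ± 0.24 (adjusted p = 3.4e-06). It was at 7.49 and 7.55 in organoids, 9.52 to 10.44 in MEFs and 10.88 to 13.00 in pluripotent cells, with no overlap. Both organoid values lay under the array median, so that difference is one to a signal near background. Of the 7 lactate and pyruvate genes tested, 1 was higher and 4 lower in MEFs. The lactate exporters Slc16a1 and Slc16a3 were both lower there by 1.70. In organoids 2 were higher, Ldhd (1.24) and the mitochondrial pyruvate carrier Mpc1 (1.13), and 2 lower, Ldhb and Ldhc.

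Pdk1's relatives took other courses. Pdk2 was higher than in pluripotent cells in organoids (1.51 ± 0.25) and in MEFs (0.80 ± 0.17). Pdk4 was lower in organoids by 2.92 ± 0.34 and Pdk3 by 0.53. Pdk4 was at 6.66 and 7.27 in organoids without and with 4-OHT, both under the array median, so its difference is one to a signal near background. Of the 8 genes of the pyruvate dehydrogenase list, 2 were higher and 2 lower in MEFs, and 1 higher and 3 lower in organoids. Gluconeogenic genes were raised in organoids, 5 of 6, led by Fbp1 (4.99 ± 0.42), Fbp2 (4.32 ± 0.16) and G6pc (4.02 ± 0.13). Of the 4 regulators of phosphofructokinase flux, 2 were higher in each of organoids and MEFs, and in both Tigar was lower (-0.90 and -0.98).

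The 17 hypoxia-responsive genes and the regulators were read beside the members. In MEFs 4 of the 17 were higher and 7 lower, led downwards by Egln3 (-2.57), Bnip3 (-1.65) and Kdm3a (-1.34) and upwards by Adm (1.94), P4ha2 (1.24) and P4ha1 (0.66). Hif1a itself was higher in MEFs by 0.72 ± 0.13, Myc by 1.08 ± 0.25, and Mycn was lower by 3.88 ± 0.26. In organoids 4 of the 17 were higher and 1 lower, led by Car9 (4.74), Ndrg1 (2.33) and Car12 (2.28), with P4ha1 at -0.97. The median of the list was -0.22 in MEFs and 0.34 in organoids, against 0.06 and -0.05 for all genes tested. Of all genes tested 69.9% were called in MEFs and 52.2% in organoids, so these counts alone say little about the list.

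The windows around the transcription starts of 4 members are shown because Aldoc and Pdk1 separated MEFs from both other cell types, Hk2 differed most with 4-OHT in organoids, and Ldha hardly changed. They were taken from RefSeq (build GRCm38.p6), 250 bases before to 50 after the start, 5′ to 3′ on the gene's strand. Capitals mark ACGTG or GCGTG on either strand, the core letters of a hypoxia response element, and CACGTG, the core E-box, holds ACGTG on both strands and so merges overlapping matches.
Aldoc, chr11:78322823-78323122, plus strand: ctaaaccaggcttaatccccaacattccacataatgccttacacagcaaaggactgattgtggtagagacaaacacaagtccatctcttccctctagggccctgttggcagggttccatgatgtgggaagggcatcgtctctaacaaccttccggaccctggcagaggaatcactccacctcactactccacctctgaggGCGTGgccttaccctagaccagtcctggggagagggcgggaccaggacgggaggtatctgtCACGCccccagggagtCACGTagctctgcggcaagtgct
Hk2, chr6:82774405-82774704, minus strand: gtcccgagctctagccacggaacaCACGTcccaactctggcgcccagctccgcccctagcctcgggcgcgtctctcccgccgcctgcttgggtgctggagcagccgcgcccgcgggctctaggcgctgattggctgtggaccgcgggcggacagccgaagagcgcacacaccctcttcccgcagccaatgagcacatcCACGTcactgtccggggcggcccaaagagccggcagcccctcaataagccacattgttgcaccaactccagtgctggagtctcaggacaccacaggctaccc
Ldha, chr7:46845554-46845853, plus strand: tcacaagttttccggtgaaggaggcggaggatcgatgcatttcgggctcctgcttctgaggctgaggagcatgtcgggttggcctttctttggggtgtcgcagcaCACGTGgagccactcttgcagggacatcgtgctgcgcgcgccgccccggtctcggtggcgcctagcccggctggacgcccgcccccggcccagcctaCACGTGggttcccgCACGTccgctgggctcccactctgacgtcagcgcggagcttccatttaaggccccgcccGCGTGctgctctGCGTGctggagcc
Pdk1, chr2:71872974-71873273, plus strand: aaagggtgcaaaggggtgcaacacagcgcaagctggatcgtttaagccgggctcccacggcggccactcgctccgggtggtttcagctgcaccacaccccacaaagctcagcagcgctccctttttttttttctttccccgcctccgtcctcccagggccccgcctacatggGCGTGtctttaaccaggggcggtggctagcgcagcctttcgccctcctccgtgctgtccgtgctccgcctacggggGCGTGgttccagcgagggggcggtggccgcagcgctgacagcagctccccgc

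Aldoc held 1 ACGTG and 2 GCGTG, Hk2 held 2 ACGTG, Pdk1 held 2 GCGTG, and Ldha held 5 ACGTG, which include both strands of 2 CACGTG, and 2 GCGTG. Of the 13 member windows 11 had a match, against 43.8% of all 32851 windows. All 9 members with an entry had a match in at least 1 window, some of them with more than 1 window to hold it. Slc2a3 had no entry. The 13 windows were 40.3 to 67.3% G and C, and the median of all windows was 52.7%. The member windows with a match held 53.3 to 67.3%, and 57.2% of all 11434 windows in that range had a match. An excess in the members was not tested. The Tcf letters CTTTGATC, on either strand, were in no member window and in 0.938% of all. CTTTGAA was in 1, an alternative Pdk1 start, against 5.14% of all.

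Likeness of pattern was measured as Pearson's r over the 18 arrays, which share cell types and processing, so it mostly reflects the 3 cell types. The genes most like Pgk1 were Ldha (r = 0.971), Me2 (0.943) and Tfdp1 (0.942). Those most like Ldha were Pgk1, Tfdp1 (0.949) and Egln3 (0.938). Slc2a3 was most like Nup62cl (0.996), AU018091 (0.987) and Folr1 (0.981), and Pdk1 most like Dna2 (0.988), Shmt1 (0.986) and Epcam (0.983). For Aldoc they were Prelid2 (0.974), Timm44 (0.969) and Fastkd2 (0.960), for Hk2 Gemin5 (0.958), Heatr1 (0.949) and Ttll4 (0.949), and for Slc2a1 Thoc5 (0.963), U2af1 (0.963) and Prpf3 (0.960). For Pfkl they were Cdca7 (0.975), Phb2 (0.975) and Shmt1 (0.971), and for Pfkp Ephx2 (0.958), Nfs1 (0.949) and Dalrd3 (0.945). Hk1, which correlated negatively with each of the 9 other members (r from -0.753 to -0.303), was most like Gng7 (0.927), Gata3 (0.925) and Ap1m1 (0.908). The remaining 36 of 45 member pairs had an r above 0. The Hk1 values hold for the probe set annotated to RefSeq mRNAs. The brighter Hk1 probe set, flat between 13.34 and 13.70, was not correlated.

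The second question was whether these genes changed with Apc state within pluripotent cells. The 3 RTC lines were set against both derivatives and against 3 ESC arrays: untreated S33, Apc Min/+ and Apc +/+. The labels give no Apc genotype for S33 cells, and they were taken as Apc-competent here and below. The derivatives were also set against the same 3 ESC arrays, so the comparisons share arrays. RTCs came from tumour cells and ESCs did not, so origin and Apc state cannot be told apart between them. Of the 10 genes only Aldoc passed the test between RTCs and ESCs, where 6.69% of 12080 genes were called (3.21% higher). It was at 12.24, 12.01 and 12.02 in RTC lines 1, 2 and 3, and at 11.37 in Apc +/+, 11.43 in Min/+ and 11.21 in S33 ESCs. All RTC arrays lay above all ESC arrays, by 0.75 ± 0.13 (1.69-fold, adjusted p = 0.0187). The size held under every alternative (0.62 to 0.80), but the call was lost on the values as deposited (adjusted p = 0.392), on median-centred values (0.0873), in a fit of all 18 arrays (0.238) and without RTC line 2, RTC line 3, Apc +/+ or Min/+ ESCs (0.0614 to 0.0776). In Min/Min ESCs, which share the high Axin2, Aldoc was at 11.10, below all 3 of these ESC arrays.

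The derivatives split for Aldoc: #45 was at 12.15, within the range of the RTCs, and #9 at 10.46, the lowest pluripotent value. Their mean lay 0.79 ± 0.44 below RTCs (adjusted p = 0.488). Without #45 the difference was 1.63 (adjusted p = 0.0273), and without #9 it was -0.06, so 1 derivative array decides the value.

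Pfkp also had its highest pluripotent values in RTCs, but without passing the test. It was at 12.17, 11.56 and 11.63 in RTC lines 1, 2 and 3, 11.16 and 11.14 in #45 and #9, 11.16 in Apc +/+, 11.33 in Min/+ and 10.93 in S33 ESCs. Every RTC array exceeded every ESC and derivative array, by 0.65 ± 0.20 against ESCs (adjusted p = 0.101) and 0.64 ± 0.23 against derivatives (adjusted p = 0.275), so neither difference passed. Min/Min ESCs were at 11.11, among the Apc-competent arrays.

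Slc2a3 was at 13.69, 13.85 and 13.82 in the RTC lines, 13.28 and 13.09 in #45 and #9, and 13.64, 13.71 and 13.44 in Apc +/+, Min/+ and S33 ESCs. The derivatives lay below all other pluripotent arrays. The difference of RTCs from derivatives was 0.60 ± 0.18 (adjusted p = 0.183). It passed with limma's trend and robust setting (adjusted p = 0.0344) and in the fit of all 18 arrays (0.0369). Min/Min ESCs had the highest value of all, 13.89.

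Of the 10 genes, none passed between RTCs and derivatives, where 1.6% of 11940 genes were called. At an unadjusted p under 0.05 the limma fit gave Pfkp and Slc2a3, both higher in RTCs, and 1686 of all genes (14.1%). Blocking on line of origin also gave a count of 0 and the Pfkp and Slc2a3 differences were 0.75 and 0.57. RTC and derivative arrays did not overlap for 4 members (Hk1, Slc2a3 and Pfkp above, Pdk1 below), against 31.1% of all genes tested. Between RTCs and ESCs 3 did not overlap (Aldoc and Pfkp above, Hk2 below), against 31.9%. Pdk1 was at 11.23, 11.26 and 11.33 in RTC lines 1, 2 and 3 against 11.71 and 11.49 in #45 and #9 (-0.32 ± 0.17, 95% interval -0.73 to 0.08). The shares without overlap are near the background.

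Derivatives and ESCs differed in none of the 10 genes, and limma called 0 of 11941 genes (0%). At an unadjusted p under 0.05 there were 1011 genes (8.47%) and 0 members, and 11 genes passed on the values as deposited and 106 in the fit of all 18 arrays. Hk2, Slc2a1, Slc2a3 and Pfkl were lower on both derivative arrays than on all 3 ESC arrays, by 0.39, 0.30, 0.41 and 0.35, where 13.3% of genes showed that order. Fibroblast markers moved with these groups: the 12 had a median difference of -0.44 between RTCs and ESCs and -0.81 between derivatives and ESCs, with mean levels of 10.48 and 10.53 in Apc +/+ and Min/+ ESCs, 9.17 in S33 ESCs, 9.07 to 9.77 in RTCs and 9.09 to 9.31 in derivatives. The 8 immune markers were higher in RTCs, with means of 8.80 to 9.77 against 8.12 to 8.31 in the ESCs. The part of either list in the member values was not tested.

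**Figure D3:**
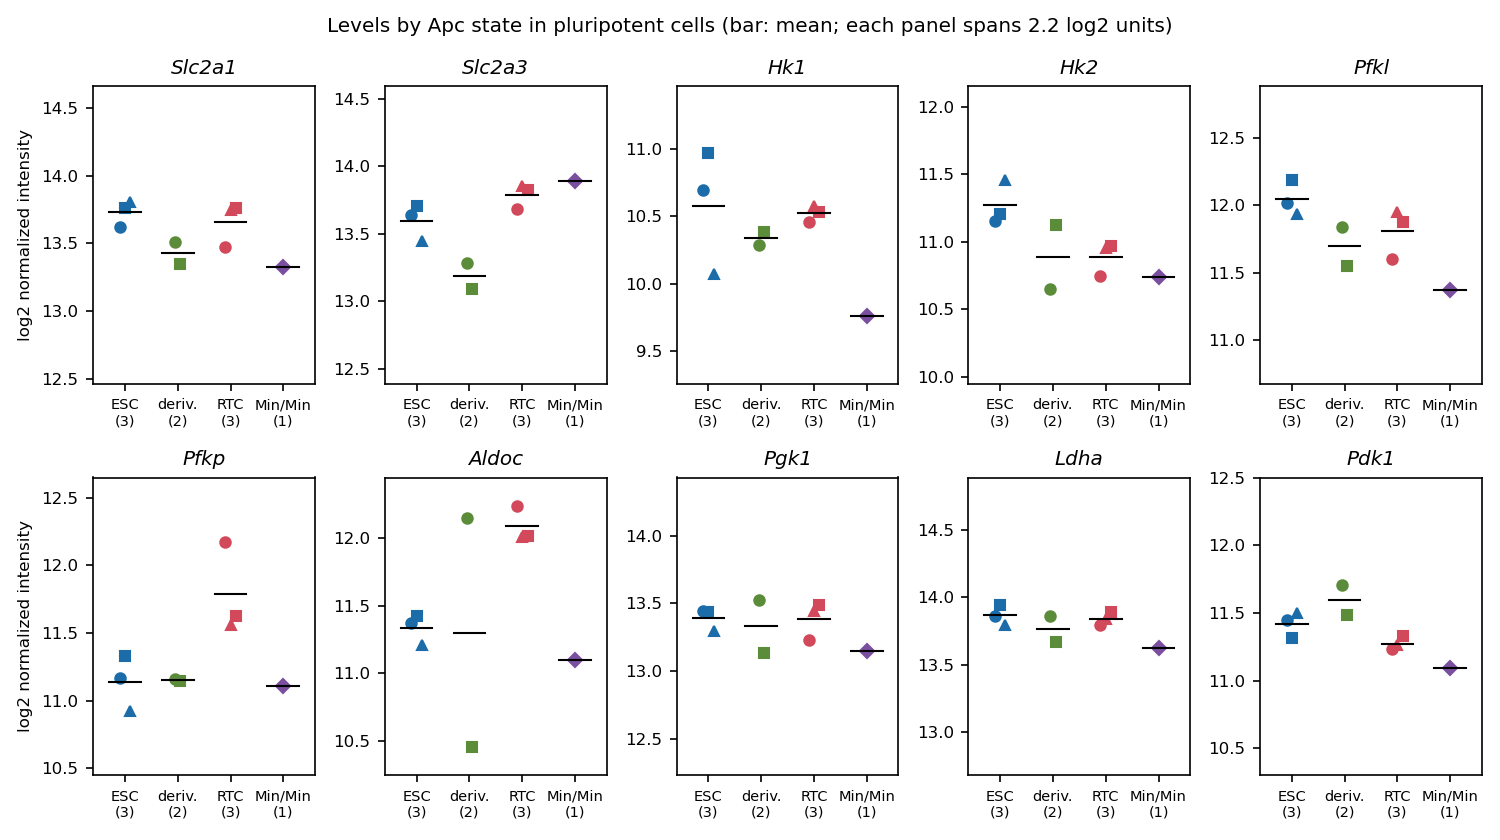
Log2 normalized intensity (y axis; every panel spans the same number of log2 units) of the 10 genes in 3 ESC arrays (circle Apc +/+, square Min/+, triangle untreated S33), 2 derivatives (circle #45, square #9), 3 RTC lines (circle 1, triangle 2, square 3) and 1 Min/Min ESC array; bars are means. Aldoc and Pfkp are higher in all RTC lines than in the ESCs, and #45 and #9 lie far apart for Aldoc at 12.15 and 10.46.

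Few genes of the wider pathway differed between these pluripotent groups. Between RTCs and ESCs, 1 of 7 lactate and pyruvate genes was higher: Mpc1, the mitochondrial pyruvate carrier (1.52 ± 0.12, adjusted p = 0.000929). It was at 11.70, 11.86 and 11.81 in RTCs, 11.42 and 11.07 in #45 and #9, and 10.32, 10.26 and 10.21 in Apc +/+, Min/+ and S33 ESCs. Both derivatives thus also lay above these ESC arrays, and Min/Min ESCs were at 10.84. Of the 8 pyruvate dehydrogenase genes 1 was higher, Pdp2, the phosphatase that counters the kinases (1.14 ± 0.16, adjusted p = 0.00739). Pdp2 was also higher in RTCs than in derivatives (1.27 ± 0.22, adjusted p = 0.0442). Of 9 glycolytic enzymes 1 was lower, the muscle enolase Eno3 (-0.71 ± 0.17, adjusted p = 0.0491).

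Of the 6 regulators, Mycn was lower in RTCs than in ESCs by 1.13 ± 0.13 (adjusted p = 0.00393) and than in derivatives by 1.52 ± 0.26 (adjusted p = 0.0411). Its levels were 10.67, 10.88 and 10.94 in RTCs and 11.09 in Min/Min ESCs, against 11.90 to 12.75 in derivatives and the 3 ESC arrays. No hypoxia-responsive gene passed against ESCs (17 tested, median -0.08) or against derivatives (16 tested, median 0.35), where the medians of all genes were -0.03 and -0.02.

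In the single Min/Min array no member differed from Apc +/+ by 2-fold, where 10.3% of 11390 genes did. Contrasts of 1 array against 1 were not tested on their own. The differences were -0.93 for Hk1 (9.76 against 10.69), -0.64 for Pfkl and -0.41 for Hk2, and 9 of the 10 were below 0, with a median of -0.30 against -0.06 for all genes. Slc2a3 was the exception at 0.25. Hk1 passed 2-fold with Min/+ ESCs as the control (-1.21), on the values as deposited (-1.03) and when centred (-1.02), while the brighter Hk1 probe set gave 0.10. Beside the members, Hkdc1 was higher by 2.17. Of the 17 hypoxia-responsive genes 1 was 2-fold higher, Vegfa (1.61), and 5 were 2-fold lower, led by Egln3 (-2.13), Ddit4 (-1.73) and Gys1 (-1.34). The fibroblast markers had their highest pluripotent mean, 11.01, on this array. Min/+ and +/+ ESCs differed by 0.27 at most in any member (Hk1), and 0.107% of 11244 genes passed 2-fold.

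The third question was what 4-OHT did in #45-derived cells. In MEFs no gene of 11603 passed limma's test (0%). At an unadjusted p under 0.05 there were 519 genes, 4.47% of those tested, and 3 members (Aldoc, Hk2 and Slc2a1). That share of all genes is no more than the threshold itself allows. Aldoc was at 8.25 and 8.18 without and 9.64 and 9.36 with 4-OHT, in the MEFs numbered 1 and 2. The arms did not overlap, and the difference was 1.29 ± 0.13 (2.44-fold, 95% interval 0.93 to 1.65, adjusted p = 0.835). The result depends on the model: with the title number as a block in limma, 148 genes passed, among them Aldoc (adjusted p = 0.0296). The labels give that number no meaning, so the arrays were not taken as paired. Hk2 was at 9.16 and 9.33 without and 9.70 and 9.85 with 4-OHT (0.53 ± 0.11), and Slc2a1 at 12.39 and 12.40 without and 12.70 and 12.81 with it (0.36 ± 0.09). For these 3 genes both treated arrays lay above both untreated ones. The arms did not overlap for 7 members, all higher with 4-OHT, where 17.9% of genes showed that order.

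The median difference of the members was 0.15 against 0.00 for all genes tested. None of the 12 fibroblast markers passed the test, but their means ran lower with 4-OHT, with values of 12.54 and 12.46 without and 12.16 and 12.05 with it, and their part was not tested. Of the 14 hypoxia-responsive genes tested 0 passed, with a median of 0.26. Egln3 was at 8.61 and 8.65 without and 9.10 and 9.24 with 4-OHT.

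In organoids, with 1 array per arm and no test, Hk2 alone of 9 members above the filter differed by 2-fold, where 2.84% of 11397 genes did (2.1% higher). It was 1.09 higher (2.14-fold), at 10.70 against 9.61. On the values as deposited it was 0.90, short of 2-fold, and on median-centred values 1.53, with Slc2a1 then also past 2-fold at 1.11. As deposited the median of all genes itself shifted by -0.45 and when centred by 0.18. Slc2a1 was 0.54 higher with 4-OHT after quantile normalization. Aldoc, Pfkp and Pdk1 were lower by 0.31, 0.38 and 0.36, and Pfkl, Pgk1 and Ldha by 0.15, 0.16 and 0.02. The sign of all 6 turned when centred, to 0.13, 0.052, 0.078, 0.31, 0.39 and 0.57 in that order. Hk1 was 0.09 higher, and -0.11 as deposited. Slc2a3 was below the filter in both organoids. No gene of the 17 hypoxia-responsive ones differed by 2-fold.

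The difference between both responses to 4-OHT was tested in the fit of all 18 arrays, a comparison added after the values were seen. For Aldoc it was 1.60 ± 0.76 (1.29 in MEFs and -0.31 in organoids, adjusted p = 0.858), and no member passed. In that test 8 of 12995 genes did. Dose, medium and cell type differed between both systems.

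Dox was followed in S33 cells, 1 array per arm. In S33 MEFs Aldoc was at 7.54 with and 9.01 without dox, lower by 1.47 (2.77-fold), and was the only member past 2-fold, where 6.22% of 11390 genes were (3.71% lower). Pfkp was higher by 0.74, Slc2a3 by 0.67 and Hk2 by 0.49, and Pdk1 lower by 0.64. The mean of the fibroblast markers was 12.69 without and 12.09 with dox. The lactate exporter Slc16a3 was lower by 1.33 and Pdk4 higher by 1.20. In S33 ESCs no member passed 2-fold, where 3.16% of 11254 genes did. Hk1 was higher by 0.71, Slc2a1 lower by 0.37, Hk2 lower by 0.32 and Aldoc higher by 0.09. The Hk1 value was 0.35 over all its probe sets and -0.0072 with the brighter one, and in S33 MEFs the Hk1 difference of 0.33 was -0.079 with the brighter one. The fibroblast markers had means of 9.17 without and 8.40 with dox in S33 ESCs, with 5 of 11 lower by 2-fold and a median difference of -0.98. Of 15 hypoxia-responsive genes 3 were 2-fold lower there, Ddit4 (-1.34), Adm (-1.15) and Bhlhe40 (-1.06). The part of either list in the member values was not tested. Pdk4 was higher by 1.21 and Mpc1 by 1.08 there.

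The difference between both responses to dox did not pass for any member in the same added test, in which 41 of 12419 genes did. It was 0.72 ± 0.29 for Slc2a3 (adjusted p = 0.468), 0.82 ± 0.38 for Hk2 (adjusted p = 0.591) and -1.56 ± 0.86 for Aldoc (adjusted p = 0.722). The Aldoc error again includes the wide spread between the derivatives. Among MEFs, Aldoc was thus higher in both arrays with 4-OHT and lower in the array with dox, in different lines and, for Axin2, with values of 8.53 and 8.81 against 11.27.

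**Figure D4:**
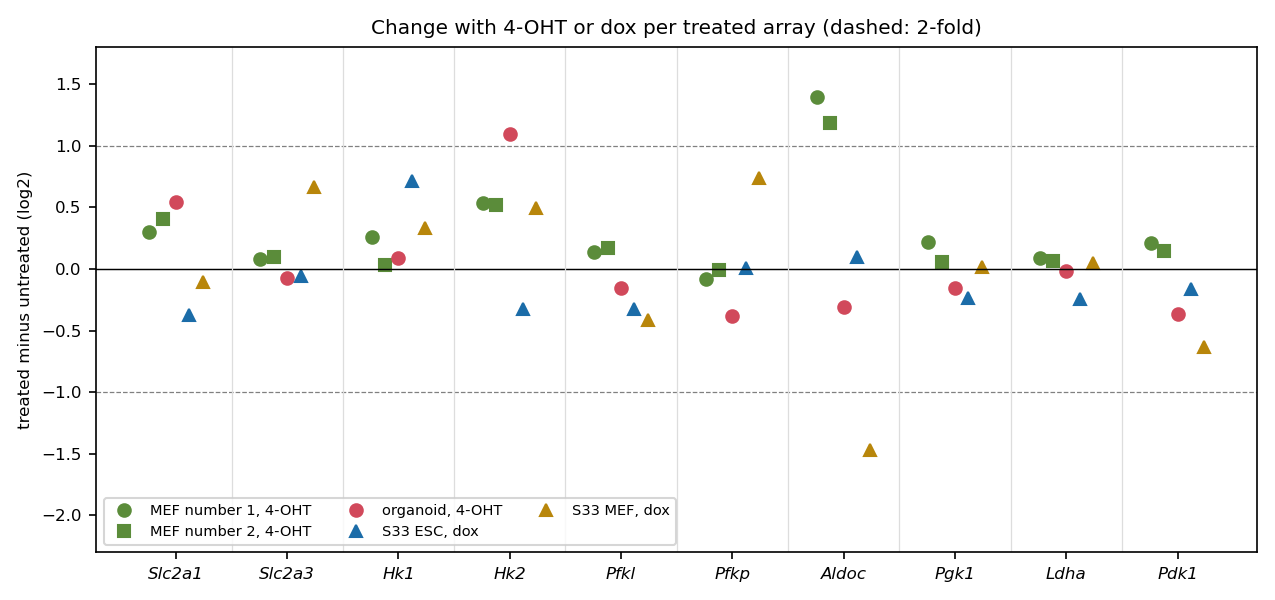
Treated minus untreated log2 level (y axis) of the 10 genes for each treated array: 4-OHT in MEFs numbered 1 and 2 and in organoids, and dox in S33 ESCs and S33 MEFs; dashed lines mark a 2-fold difference. Aldoc is 1.39 and 1.19 higher with 4-OHT in the MEFs and 1.47 lower with dox in S33 MEFs, and Hk2 is 1.09 higher with 4-OHT in organoids.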

How the data were processed

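Each of the 18 samples was measured on 1 single-colour array. The authors deposited linear intensities for 28856 probe sets, of which 3 had no values, and their background correction, summary and scaling are not given in the sources used here. Deposited array medians ran from 142 to 317, so the arrays were quantile normalized as 1 set on the log2 scale. Genes were named from the platform annotation: 21789 probe sets had 1 symbol, 1621 several and 5443 none, and 21698 of the 21789 matched the RefSeq gene table (GRCm38.p6). The probe set with the highest mean stood for a gene, except for Hk1, where the brightest set rests on an accession shared with probe sets of several symbols and the set with RefSeq mRNA accessions was used; this exception was made after seeing the data. Genes above the array median (percentile 50) on at least 1 compared array were tested. In the cell type comparisons this filter used all 18 arrays. A gene high only in the cell type not compared was therefore tested too.

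Linear models were fitted with limma 3.58.1 (R 4.3.3; moderated, no trend, two-sided p) and called at a Benjamini-Hochberg adjusted p of 0.05 across every gene tested. Exact permutation tests (scipy 1.17.1) served the paralogue shifts. The code was tested on simulated data. Contrasts with 1 array per arm were not tested on their own and count 2-fold differences; only differences between responses were tested, in the fit of all 18 arrays, which assumes that lone arrays vary like the replicated groups. The labels do not say if replicates were grown as separate cultures, so p-values measure the spread between arrays, which may be technical. The number of arrays limits the precision. RTC lines 1 and 3 pair with #45 and #9 by line of origin, although their deviations hardly correlated (r = 0.081 over genes). Named were all 10 members, up to 3 rises and falls per list and comparison, fixed relatives and state checks, and the 3 genes most like each member; Egln3 with 4-OHT and Pkm in MEFs were added after their values were seen. Gapdh, Gpi1, Eno1, Pfkfb1, Mpc2 and Ero1l had no probe set under that single symbol and were not analysed here. Members and lists were chosen with earlier results of these data known. Alternatives were values as deposited, median centring, no filter, the mean of probe sets, trend and robust eBayes, arrays left out, 1 fit of all arrays, and blocks.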

Additional observations from a re-analysis of the deposited data

How the results depend on the processing

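Between cell types, the differences of Slc2a3, Aldoc, Pfkl, Pfkp and Pdk1 between MEFs and either other cell type, and the 3 isoform shifts in MEFs, kept their direction and call under every alternative run; the shift from Slc2a3 in organoids was -5.06 over untreated Apc-competent arrays. Leaving out 1 organoid gave 2 to 3 members and 4843 to 5574 genes called against pluripotent cells. Calls among the pluripotent groups were less firm. Between RTCs and ESCs no member was called on values as deposited, when centred or in 1 fit of all arrays, and 0 to 1 with 1 array left out; genes called were 808 at first, 358 as deposited and 234 to 1170 with 1 array left out. Between RTCs and derivatives 1 member was called with trend and robust eBayes, 1 in the fit of all arrays and 0 to 1 with 1 array left out; genes called were 191 at first, 81 as deposited, 561 in the fit of all arrays and 33 to 383 with 1 array left out. For derivatives against ESCs, 11 genes were called as deposited and 106 in the fit of all arrays. With the title number as a replicate block, 4-OHT in MEFs gave 148 genes (54 higher, 94 lower) and 1 member, Aldoc (adjusted p = 0.0296); the numbers' deviations correlated (r = 0.855, 2 pairs) but the labels give them no meaning. The line-of-origin block changed no member call. Hk1 made 1 member 2-fold lower in Min/Min ESCs as deposited, when centred and against Min/+. Genes past 2-fold in Min/+ numbered 12 at first, 41 as deposited and 20 when centred. In organoids with 4-OHT, 0 members passed as deposited and 2 when centred; genes were 324 (239 higher, 85 lower), against 726 (104 higher, 622 lower) as deposited and 613 (575 higher, 38 lower) when centred.

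Signs turned for member differences that were small or rested on 1 array, with the cause not tested. As deposited, RTC minus ESC was 0.00086 for Slc2a1, 0.081 for Pgk1 and 0.032 for Ldha, RTC minus derivative was -0.063 for Pgk1 and -0.11 for Ldha, and derivative minus ESC was 0.012 for Aldoc, -0.038 for Pfkp, 0.14 for Pgk1 and 0.14 for Ldha. Organoid minus pluripotent was then -0.088 for Pfkp, and organoid minus MEF -0.018 for Slc2a1. When centred, RTC minus derivative was -0.14 for Hk2, -0.086 for Slc2a1, -0.11 for Pfkl, -0.24 for Pgk1 and -0.28 for Ldha, and derivative minus ESC was 0.070 for Aldoc, 0.20 for Pgk1 and 0.20 for Ldha. Centring also gave 0.018 for Pfkp with 4-OHT in MEFs and 0.16 for Pdk1 in organoids against pluripotent cells. Hk1 in RTC minus ESC was 0.028 over all its probe sets. With the brighter Hk1 probe set, an alternative chosen after seeing the data, Hk1 was 0.11 in RTC minus ESC, -0.021 with 4-OHT in MEFs, -0.11 in MEFs against pluripotent cells, 0.063 in organoids against MEFs, -0.0072 with dox in S33 ESCs, -0.079 with dox in S33 MEFs and 0.097 in Min/Min against +/+ ESCs. The line-of-origin block gave -0.026 for Hk2 in RTC minus derivative, untreated Apc-competent arrays 0.054 for Pdk1 and arrays of #45 origin -0.078 for Aldoc, the last 2 in organoids against pluripotent cells.

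With 1 array left out, RTC minus ESC ranged from -0.31 to 0.14 for Hk1, -0.12 to 0.026 for Slc2a1, -0.057 to 0.073 for Pgk1 and -0.063 to 0.013 for Ldha. RTC minus derivative ranged from -0.23 to 0.24 for Hk2, -0.059 to 1.63 for Aldoc, -0.032 to 0.26 for Pfkl, -0.14 to 0.25 for Pgk1 and -0.018 to 0.18 for Ldha. Derivative minus ESC ranged from -0.88 to 0.81 for Aldoc, -0.098 to 0.10 for Pfkp and -0.26 to 0.13 for Pgk1. The 4-OHT difference in MEFs ranged from -0.067 to 0.36 for Hk1 and -0.17 to 0.078 for Pfkp. Organoids ranged from -0.19 to 0.17 for Pdk1 against pluripotent cells and from -0.095 to 0.44 for Slc2a1 against MEFs. A lone array was assumed to vary like the others. Signals near the array median limit Slc2a3 in organoids, and differences near the top of the scale limit Ldha, Pgk1 and Slc2a1.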
